A study of Oryza sativa Japonica Group with 4 samples.

Results

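The bZIP (basic leucine zipper) transcription factors of rice were described in leaf RNA-seq of 2 plant lines under drought. A gene was taken as a member when its deposited name or description held the word bZIP or basic leucine zipper, and 86 of the 33744 genes in the deposited table met this rule. The rule used names only and no measured value. The leaves came from Oryza sativa (Japonica group) seedlings 14 days old after 6 h of drought, with 2 libraries for each line. Both lines were named after OsWOX13, a WUSCHEL-related homeobox transcription factor whose acetylation is the subject of the series. OE13 is labelled as the drought resistant type. OE13-2KR/oswox13-1 is labelled as the drought sensitive type, and its name differs from OE13 by both the 2KR form and the oswox13-1 allele, whose parts cannot be told apart. The sources used here do not give the promoter behind OE13, the number of independent transformants or the number of plants per library. All 4 libraries were from drought-treated plants, so each value compares one stressed line with the other.

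A bZIP protein holds a basic region that contacts DNA and a leucine zipper through which it pairs with a second bZIP protein, and many plant bZIP proteins bind sites with an ACGT core. In rice the family serves several pathways. Its ABF/AREB branch carries the transcriptional output of abscisic acid (ABA), the hormone made during water deficit, after SnRK2 kinases phosphorylate it. Other branches act in defense with NPR1-type co-activators (TGA type), in light responses (HY5 type), in the response to unfolded proteins of the endoplasmic reticulum (ER), in seed storage protein synthesis and in flowering.

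Expression was given as FPKM, the fragment number scaled to gene length and library total, so levels can be set side by side between genes. FPKM summed to between 931335 and 941593 per library, and the number of reads behind it is unknown. The leaf label was checked with 21 genes for the rubisco small subunit and light-harvesting proteins, which summed to 17484 and 9147 FPKM in replicates 1 and 2 of OE13-2KR/oswox13-1 and to 28242 and 14749 in those of OE13. The 3 root-specific genes summed to between 0.437 and 1.74. The locus taken to be OsWOX13 (Os01g0818400, listed as OsWOX8) stood at 27.1 and 49.9 FPKM against 22.0 and 75.6, so the lines overlapped. Reads of a transgene and of the native gene are counted together. Replicate numbers are given in this order throughout, and each difference is OE13-2KR/oswox13-1 minus OE13 on the log2(FPKM + 1) scale.

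Of the 86 members, 56 had a mean of at least 1 FPKM and were tested with limma among 20174 such genes. The other 30 members lay at 0.970 FPKM or less on average, while the lowest tested member averaged 1.43. OsbZIP27 and OsbZIP69 were listed at 0 in all 4 libraries. Among the tested members 22 averaged between 1 and 10 FPKM, 24 between 10 and 100, and 10 above 100, and their median level of 14.7 compared with 10.97 for all tested genes. Members lay on all chromosomes, with 13 on chromosome 2, 11 each on chromosomes 1 and 3, and 1 on chromosome 10. A gene ontology term for DNA-binding transcription factor activity stood beside 79 of the 86, one for the ABA-activated signaling pathway beside 14 and one for defense response beside 13. MODD entered by its description as a mediator of OsbZIP46 deactivation and carries no transcription factor term.

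The members, MODD included, made up 0.304% and 0.361% of the FPKM total in OE13-2KR/oswox13-1, against 0.283% and 0.303% in OE13. Without MODD the shares were 0.258% and 0.300% against 0.225% and 0.251%. The 5 members with the highest levels held 48.9% of the member total, MODD included. MODD came first, with 428 and 567 FPKM against 540.2 and 493. BZIP12, the ABF/AREB factor also known as OsABF1, came next at 266 and 351 against 250.4 and 288. OsbZIP45, described as similar to a G-box binding factor, stood at 197 and 295 against 213 and 261. In these 3 genes the lines overlapped, and their levels followed the library more than the line. OsbZIP86, described as similar to a DNA-binding factor of the bZIP class, stood at 209 and 259 against 195 and 192. BZIP71, annotated for drought and salt tolerance, stood at 212 and 257 against 127 and 125. In OsbZIP86 and BZIP71 both OE13-2KR/oswox13-1 libraries were above both OE13 libraries.

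Most tested members had the larger value in OE13-2KR/oswox13-1, but no single member passed the test after adjustment. The log2 fold change was positive for 37 and negative for 19 of the 56, and the median was 0.18, where that of the 20174 tested genes was -0.08. With limma, 0 members had an adjusted p under 0.05, against 0.00% of all tested genes higher and 0.00496% lower, and the lowest adjusted p among members was 0.187. Without adjustment, limma gave a p under 0.05 to 9 members with a higher and 5 with a lower level in OE13-2KR/oswox13-1, which are the members spoken of as called. Of the 5 lower, Os11g0166201 averaged under 1 FPKM in OE13-2KR/oswox13-1 and passed the level filter through OE13 alone, and 4 were called lower without it. With it, 25.0% of the tested members were called, 16.1% higher and 8.93% lower. The same holds for 20.0% of all tested genes, 8.00% higher and 12.0% lower. After quantile normalisation the background was 10.5% higher and 9.43% lower, and the members called were 9 and 4. The libraries of the lines did not overlap for 22 members with higher and 13 with lower values in OE13-2KR/oswox13-1 (39.3% and 23.2%), beside 23.4% and 32.8% of all tested genes. No label says that the libraries came from separate plants, so the p-values reflect the spread among these libraries alone, and it may be technical. In bulk leaf tissue, fewer cells of a type and less RNA per cell cannot be told apart.

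**Figure D1:**
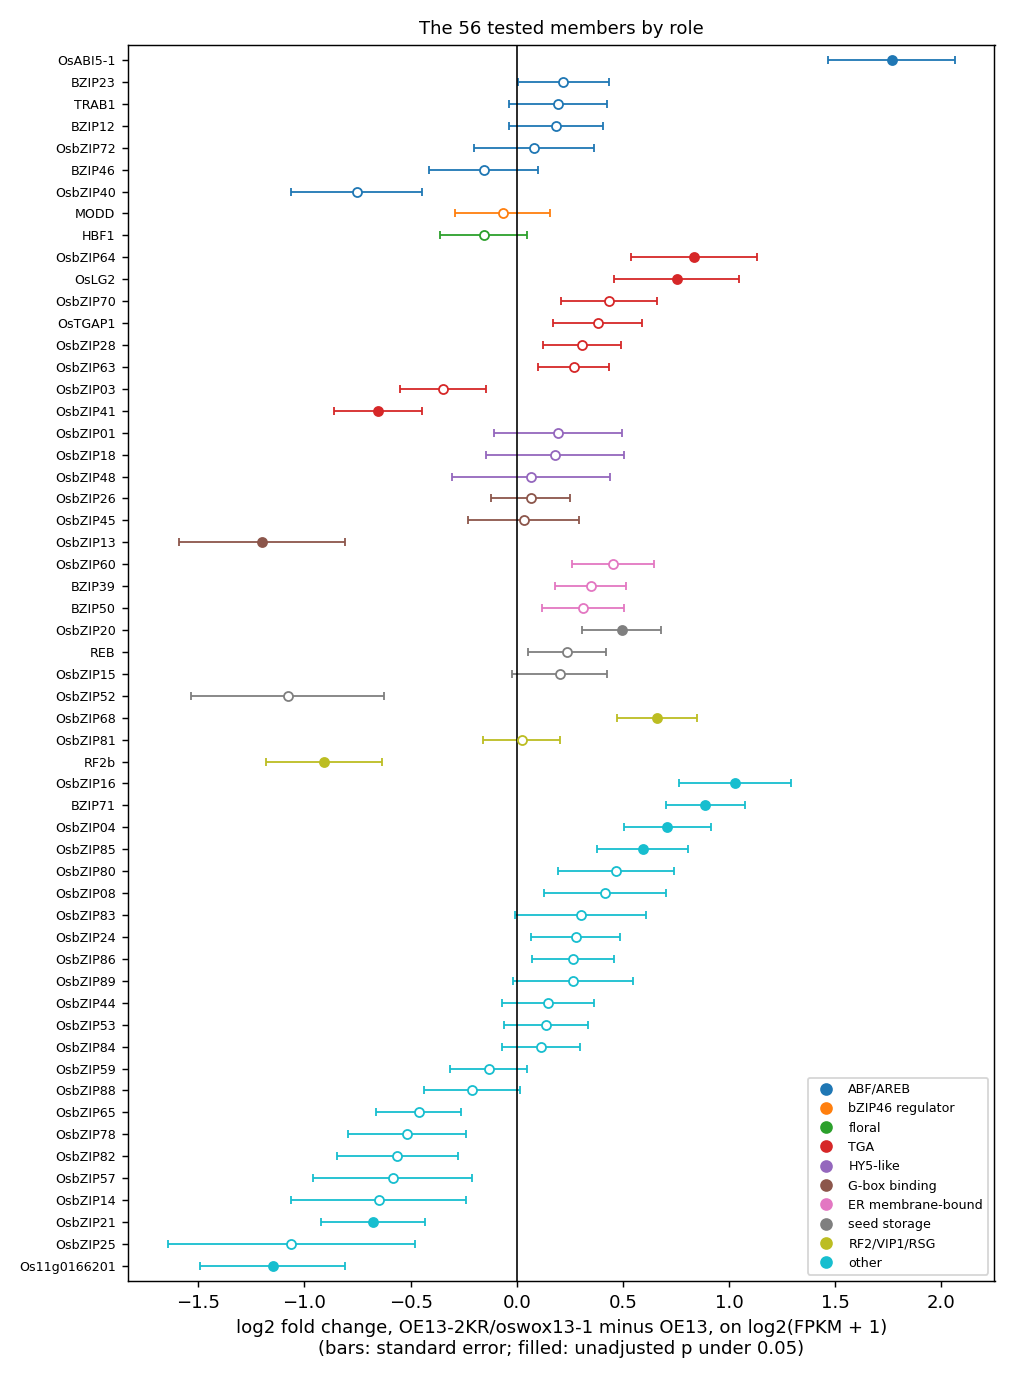
Log2 fold change on log2(FPKM + 1), OE13-2KR/oswox13-1 minus OE13, of the 56 tested members, grouped by role. Bars are standard errors from limma and filled points mark the 14 members with an unadjusted p under 0.05. Among these, Os11g0166201 passed the level filter through OE13 alone. Of all points 37 lie right of 0 and 19 left of it, with OsABI5-1 farthest right at 1.77 and OsbZIP13 farthest left at -1.20.

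The positive balance of the family moved with 1 library. OE13-2KR/oswox13-1 replicate 2 held the highest value for 26 of the 56 members (46.4%, against 25.4% of all tested genes), and OE13 replicate 1 the lowest for 22 (39.3%, against 19.9%). Without OE13-2KR/oswox13-1 replicate 2 the median of the members was 0.01, and without any other library it lay between 0.12 and 0.27. That library also had the lowest leaf marker sum of the 4, and the part of this in the result was not tested. The 5 members called lower became 0 when OE13 replicate 2 was left out and 3 when OE13-2KR/oswox13-1 lacked its replicate 2, where the share of all tested genes called lower was 4.96% and 6.81%. The 9 called higher became 4 without either OE13 library, where 4.59% (replicate 1 left out) and 3.88% (replicate 2 left out) of all tested genes were called higher.

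**Figure D2:**
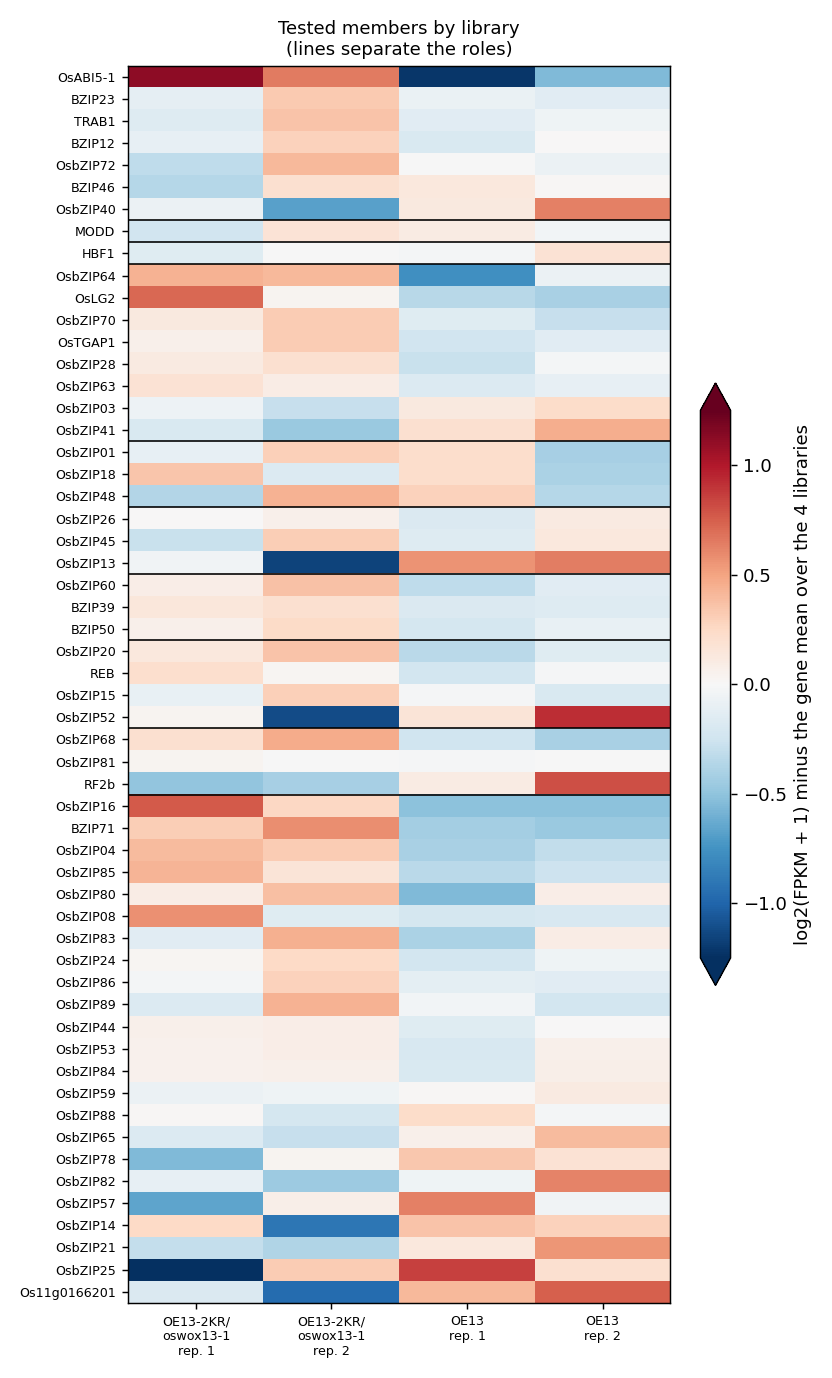
Tested members (rows, grouped by role) in the 4 libraries (columns), as log2(FPKM + 1) minus the mean of the gene over the libraries. OE13-2KR/oswox13-1 replicate 2 holds the highest value in 26 rows and OE13 replicate 1 the lowest in 22.

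The ABF/AREB branch was of first interest, since it answers to ABA and to water deficit. Of its 9 members 7 were tested, and 1 of them, OsABI5-1, differed at an unadjusted p under 0.05. That is 14.3% higher and 0% lower, beside 8.00% and 12.0% of all tested genes. OsABI5-1 (Os01g0859300, also called OsbZIP10, chromosome 1, 37174575 to 37176344, plus strand, build IRGSP-1.0) is the rice relative of the Arabidopsis factor ABI5 and is annotated for stress response, ABA signal transduction and fertility. It stood at 100.5 and 72.5 FPKM against 19.2 and 31.0. Both libraries of the drought sensitive type were thus above both of the drought resistant type, with group means of 86.5 ± 19.8 and 25.1 ± 8.32 (SD, n = 2 each). This is a log2 fold change of 1.77 (SE 0.30, 95% interval 1.01 to 2.52, limma unadjusted p = 0.00161, adjusted p = 0.187). It was the largest among the tested members, and it stayed between 1.43 and 2.10 with any 1 library left out, at an unadjusted p under 0.05 each time.

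OsABI5-1 stood apart from the drought regulators named by the rule. BZIP23 (Os02g0766700, chromosome 2, 32276662 to 32281580, minus strand), annotated for ABA signaling and biosynthesis and drought resistance, stood at 117 and 160.0 FPKM against 120 and 115. BZIP46 (Os06g0211200, chromosome 6, 5677157 to 5682033, plus strand), annotated as a positive regulator of ABA signaling and for drought tolerance, stood at 8.12 and 12.4 against 11.8 and 10.8. OsbZIP72 (Os09g0456200, chromosome 9, 17190097 to 17194010, plus strand), which binds ABA response elements in rice, stood at 15.4 and 26.2 against 19.5 and 18.5. In these 3 genes OE13-2KR/oswox13-1 replicate 2 was the highest library, and the OE13 values lay within the span of the other line for BZIP46 and OsbZIP72. The log2 fold change was 0.22 for BZIP23 (95% interval -0.32 to 0.76, limma adjusted p = 0.579). For BZIP46 it was -0.15 (-0.80 to 0.49, adjusted p = 0.751) and for OsbZIP72 0.08 (-0.64 to 0.80, adjusted p = 0.891). All 3 intervals hold 0.

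The remaining ABF/AREB genes were as mixed. TRAB1, which binds the seed factor VP1 and the ABA response element, stood at 48.8 and 70.0 FPKM against 49.5 and 52.5. OsbZIP40, described as similar to G-box-binding factor 4, stood at 8.58 and 5.30 against 9.99 and 14.6, and here both OE13 libraries were higher (log2 fold change -0.75, SE 0.31, limma unadjusted p = 0.0557, adjusted p = 0.259). OsbZIP62 and Os03g0144951, the latter described as similar to ABI5, lay below 0.3 FPKM in every library and were not tested. Without OE13-2KR/oswox13-1 replicate 2, 6 of the 7 tested genes had a negative log2 fold change and OsABI5-1 alone a positive one of 2.00, where all libraries together gave 5 positive and 2 negative. MODD, the negative regulator of ABA signaling that acts on BZIP46, differed by -0.07 (SE 0.22, limma adjusted p = 0.886).

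**Figure D3:**
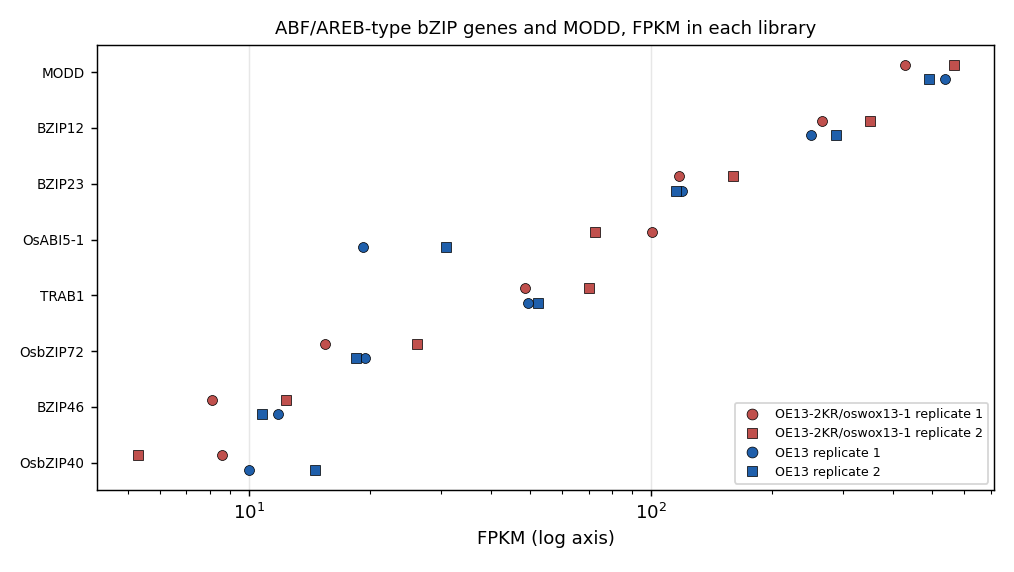
FPKM of the 7 tested ABF/AREB-type genes and of MODD in each library on a log axis, ordered by mean level. OsABI5-1 is the gene whose OE13-2KR/oswox13-1 libraries (72.5 and 100.5) lie clear above those of OE13 (19.2 and 31.0), and OsbZIP40 the one whose libraries lie clear below.

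The genes upstream and downstream of this branch were counted from lists made by name. Among 10 tested SnRK2 kinase genes of 11, limma called 2 higher and 0 lower without adjustment (20.0% and 0%). Of all tested genes 8.00% were called higher and 12.0% lower, which is 20.0% in either direction. The median log2 fold change was -0.01. SAPK1, a kinase of the hyperosmotic stress response, stood at 105 and 137 FPKM against 58.0 and 61.5 (log2 fold change 1.00, SE 0.20, limma adjusted p = 0.187), and SAPK6, a dehydration-inducible kinase, at 67.3 and 64.7 against 35.9 and 40.7 (0.77, SE 0.17, adjusted p = 0.194). SAPK4 lay the other way, at 114 and 157 against 237 and 178. So SAPK1 and SAPK6 had both libraries of OE13-2KR/oswox13-1 above OE13 and SAPK4 both below. With 1 library left out, the log2 fold change lay between 0.81 and 1.19 for SAPK1 and between 0.69 and 0.86 for SAPK6. For SAPK4 it lay between -0.84 and -0.38. The absence of lower calls did not hold without OE13-2KR/oswox13-1 replicate 2 or without OE13 replicate 2. SAPK8, SAPK9 and SAPK10, the kinases that ABA itself activates, were not called. Of 10 ABA receptor genes 5 were tested, and 0 were called by limma in either direction, with log2 fold changes between -1.04 and -0.0056 and a median of -0.34. The absence of calls did not hold without OE13-2KR/oswox13-1 replicate 1, where the median was -1.09, beside -0.11 for all tested genes. In that fit more of all tested genes were called lower as well than with all libraries. Without replicate 2 of that line the median was -0.075. The PP2C co-receptors are phosphatases that hold SnRK2 kinases inactive until ABA is bound. Only 3 genes matched them by name or description, so the list may be incomplete, and 1 of the 3 was called. That is 33.3% higher and 0% lower, beside 8.00% and 12.0% of all tested genes. The gene called was OsPP2C51, at 3.85 and 9.10 FPKM against 2.205 and 2.10 (log2 fold change 1.15, SE 0.39, limma unadjusted p = 0.0287, adjusted p = 0.218). Another gene lies over 70.9% of it in antisense. Its difference was 0.62 without OE13-2KR/oswox13-1 replicate 2, and it was called in 1 of the 4 fits with a library left out.

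LEA proteins and dehydrins, which protect cells as they lose water and are classic targets of ABF/AREB factors, did not share a direction. Of 36 such genes 23 were tested, and 2 were called higher and 1 lower (8.70% and 4.35%, beside 8.00% and 12.0% of all tested genes). OsLEA3-1 stood at 116 and 177 FPKM against 55.0 and 72.3 (log2 fold change 1.17, SE 0.27, limma adjusted p = 0.194). LEA8 stood at 414 and 623 against 353 and 276 (0.70, SE 0.28, adjusted p = 0.248). Os01g0109000 had both OE13-2KR/oswox13-1 libraries below OE13, at 3.40 and 2.76 against 4.68 and 7.10. Rab16A overlapped, at 35.5 and 69.8 against 112 and 57.8. The median of the list was -0.14. With replicate 1 or 2 of OE13-2KR/oswox13-1 left out it was 0.29 and -0.62, and with those of OE13 left out 0.061 and -0.19. The sign of the median thus depended on which library was left out.

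The ER stress branch had higher values in both OE13-2KR/oswox13-1 libraries for each of its 3 genes. In plants these bZIP factors raise the genes for ER chaperones when unfolded proteins build up. BZIP39 and OsbZIP60 are relatives of the membrane-anchored Arabidopsis factor bZIP28, and BZIP50 is the rice factor whose mRNA is spliced by the sensor IRE1. OsbZIP60 stood at 109 and 133 FPKM against 82.1 and 93.1 (log2 fold change 0.45, SE 0.19, limma unadjusted p = 0.0623). BZIP39 stood at 53.3 and 55.6 against 42.3 and 42.9 (0.35, SE 0.17, limma unadjusted p = 0.0865). BZIP50 stood at 16.1 and 18.3 against 13.004 and 14.3 (0.31, SE 0.19, limma unadjusted p = 0.164). None was called, with adjusted p between 0.271 and 0.400, and the levels of OE13 and OE13-2KR/oswox13-1 did not overlap in any of the 3, beside 23.4% of all tested genes higher without overlap. Their median of 0.35 lay between 0.31 and 0.40 with any 1 library left out. FPKM per gene does not separate spliced from unspliced BZIP50 mRNA.

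The ER chaperones and folding enzymes, known targets of this branch, were counted next. Of 21 listed genes 12 were tested, and 7 (58.3%) were called higher and 0 lower, beside 8.00% and 12.0% of all tested genes. Their median log2 fold change was 0.55, with single genes from -0.34 to 1.382; a difference from the 3 factors was not tested. OsBiP1, the main ER chaperone of the HSP70 class, stood at 502 and 708 FPKM against 189 and 275 (log2 fold change 1.382, SE 0.29, limma unadjusted p = 0.00404, adjusted p = 0.187). The protein disulfide isomerase gene PDIL2 (Os09g0451500) stood at 20.6 and 19.3 against 8.54 and 9.75 (1.05, SE 0.19, adjusted p = 0.187). CRO1, a calreticulin, stood at 222 and 281 against 119 and 142 (0.94, SE 0.21, adjusted p = 0.194). In all 3 the lower library of OE13-2KR/oswox13-1 exceeded the higher library of OE13, and another gene lies over 54.0% of OsBiP1 in antisense. Nor did the lines overlap for calnexin (OsCNX) and the disulfide isomerase ESP2, at log2 fold changes of 0.94 and 0.69. With 1 library left out, the median lay between 0.44 and 0.73. Fewer genes of the list were called without OE13-2KR/oswox13-1 replicate 2 or either OE13 library. In those fits fewer of all tested genes were called higher as well. No gene of the list passed the adjusted threshold.

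**Figure D4:**
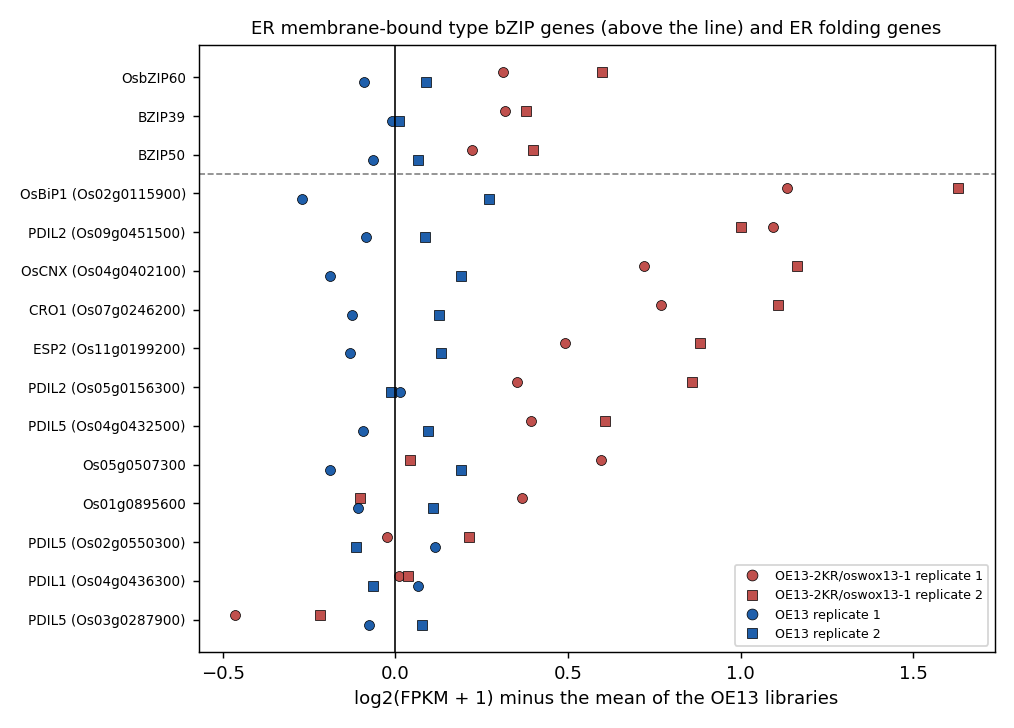
Genes of the ER stress branch (above the dashed line) and the 12 tested ER folding genes (below) in each library, as log2(FPKM + 1) minus the OE13 mean. All 3 bZIP genes and 7 folding genes have both OE13-2KR/oswox13-1 libraries right of both OE13 libraries, with OsBiP1 at a difference of 1.382; PDIL5 (Os03g0287900) lies left.

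TGA factors, which bind the promoters of defense genes and recruit NPR1-type co-activators, went both ways without any overlap of the lines. Of 11 members 8 were tested, and 6 were higher and 2 lower in both OE13-2KR/oswox13-1 libraries, beside 23.4% and 32.8% of all tested genes. Of these, 2 were called higher and 1 lower, beside 8.00% and 12.0%. OsbZIP41, described as similar to maize Liguleless2, was lower, at 16.3 and 13.3 FPKM against 21.7 and 26.0 (log2 fold change -0.65, SE 0.21, limma adjusted p = 0.213). OsbZIP64, similar to the wheat histone promoter factor HBP-1b, stood at 5.19 and 5.07 against 1.70 and 3.38 (0.83, SE 0.30, adjusted p = 0.227), and OsLG2, a second Liguleless2 relative, at 5.93 and 3.33 against 2.31 and 2.19 (0.75, SE 0.30, adjusted p = 0.248). Liguleless2 sets the blade and sheath boundary of the leaf in maize.

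Single libraries moved the values of OsLG2 and OsbZIP64, both at low levels, more than that of OsbZIP41. The log2 fold change of OsbZIP41 lay between -0.79 and -0.52 with 1 library left out, and it was called in 1 of these 4 fits. The value of OsLG2 ran from 0.41 without OE13-2KR/oswox13-1 replicate 1 to 1.09 without its replicate 2, and that of OsbZIP64 from 0.49 to 1.18, the lower without OE13 replicate 1. Genes in antisense lie over 53.5% of OsbZIP64 and 47.8% of OsLG2. Reads of such pairs cannot be told apart without strand, and the sources used here state no stranded counting. The partner of OsLG2, the phosphatase gene OsPP16, stood at 15.3 and 17.8 FPKM against 16.5 and 14.0. The most abundant TGA gene, OsbZIP63, stood at 136 and 128 against 106 and 112 (log2 fold change 0.27, SE 0.17, adjusted p = 0.402). OsTGAP1, which regulates diterpenoid phytoalexin production in rice, stood at 9.60 and 11.7 against 7.57 and 8.22 (0.38, adjusted p = 0.354). OsbZIP28 and OsbZIP70 lay the same way at 0.31 and 0.44, and OsbZIP03, similar to Arabidopsis TGA6, the other way at -0.35 (9.90 and 8.31 against 11.3 and 12.3). OsbZIP47, OsTGA10 and OsbZIP79 averaged less than 1 FPKM and were not tested.

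The NPR1 family, whose proteins TGA factors recruit, had 3 genes, all tested. OsNH2 stood at 426 and 456 FPKM against 319 and 313 (log2 fold change 0.48, SE 0.18, limma unadjusted p = 0.0414, adjusted p = 0.237). Another gene lies over 74.4% of OsNH2 in antisense, and its call was lost with any 1 library left out. OsNPR3 stood at 32.7 and 21.9 against 20.8 and 12.5 (0.69, SE 0.32, adjusted p = 0.299). Its log2 fold change lay between 0.35 and 1.04 with 1 library left out, and another gene lies over 34.1% of it in antisense. NH1, the rice relative of Arabidopsis NPR1, stood at 92.4 and 88.4 against 101 and 109 (-0.22, SE 0.17, adjusted p = 0.490). None of the 3 overlapped between the lines, beside 23.4% higher and 32.8% lower without overlap among all tested genes. NH1 had the opposite sign to OsNH2 and OsNPR3.

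The HY5-type genes, relatives of the Arabidopsis light-response factor HY5, showed no separation of the lines. OsbZIP01 stood at 7.11 and 9.67 FPKM against 9.13 and 5.51, OsbZIP18 at 3.40 and 2.08 against 3.02 and 1.63, and OsbZIP48 at 4.30 and 8.20 against 7.33 and 4.32. All 3 genes overlapped, with log2 fold changes of 0.20, 0.18 and 0.07 and limma adjusted p of 0.732 or more. All 3 signs turned without OE13 replicate 2. PPS, the rice form of the COP1 ubiquitin ligase that marks HY5 for degradation in Arabidopsis, overlapped as well, at 65.0 and 42.4 against 52.2 and 32.1. Os03g0116500, described as constitutive photomorphogenic and the other of 2 light regulators listed, differed by 0.033 (limma adjusted p = 0.9496), and 0 of the 2 were called.

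The seed storage type and the RF2 type each held genes of opposite sign. OsbZIP20, known as RITA1 and an activator of seed genes, stood at 121 and 142 FPKM against 87.0 and 99.3 (log2 fold change 0.49, SE 0.19, limma unadjusted p = 0.043, adjusted p = 0.240). OsbZIP52, known as RISBZ5 and annotated as a negative regulator of cold and drought responses, stood at 38.4 and 16.7 against 41.9 and 71.7 (-1.08, SE 0.46, unadjusted p = 0.0609, adjusted p = 0.269). OsbZIP20 was higher and OsbZIP52 lower in both OE13-2KR/oswox13-1 libraries. The value for OsbZIP52 ranged from -1.65 to -0.51, nearest 0 without OE13-2KR/oswox13-1 replicate 2. In the RF2 type, OsbZIP68 stood at 118 and 143 against 86.4 and 77.6 (0.66, SE 0.19, adjusted p = 0.202). RF2b, a disease resistance and vascular development factor that in rice binds the promoter of a tungro virus, stood at 29.8 and 31.6 against 45.5 and 75.1 (-0.91, SE 0.27, adjusted p = 0.205). OsbZIP81, similar to the tobacco factor RSG, hardly varied, at 15.3 and 14.8 against 14.7 and 14.9.

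In the G-box binding type OsbZIP13, similar to the wheat histone promoter factor HBP-1a, was the lowest in log2 fold change of all tested members. It stood at 11.9 and 4.93 FPKM against 18.5 and 19.6, a log2 fold change of -1.20 (SE 0.39, 95% interval -2.19 to -0.21, limma unadjusted p = 0.026, adjusted p = 0.215). Both OE13 libraries were higher, and leaving out replicate 2 of OE13-2KR/oswox13-1 gave -0.64, leaving out its replicate 1 gave -1.76. The authors' deposited table lists OsbZIP13 as up, with a log2 fold change of 0.78, an unadjusted p-value of 0.0316 and an adjusted p-value of 0.559. The authors' deposited table also lists OsbZIP52 as up, with 0.76, 0.0441 and 0.632 for the same quantities. Both genes had higher FPKM in OE13, so up in that table corresponds here to the line labelled drought resistant. These were the members found in the list marked up. The list marked down carries identifiers that were not paired with the members and was not analysed here.

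Among members of no named branch, BZIP71 and OsbZIP16 had the clearest separation. BZIP71 (Os09g0306400, chromosome 9, 7871589 to 7873655, plus strand) averaged 235 ± 31.7 FPKM against 126 ± 1.92 (SD, n = 2 each). Its log2 fold change was 0.89 (SE 0.19, 95% interval 0.42 to 1.36, limma unadjusted p = 0.00437, adjusted p = 0.188) and lay between 0.75 and 1.03 with 1 library left out. A hypothetical antisense gene lies over 45.7% of BZIP71 and stayed below 0.6 FPKM in every library. OsbZIP16 (Os02g0191600, chromosome 2, 5067166 to 5068036, minus strand), a positive regulator of drought resistance in rice, stood at 4.65 and 2.95 against 1.32 and 1.31. That is a log2 fold change of 1.03 (SE 0.26, 95% interval 0.36 to 1.70, limma unadjusted p = 0.0103, adjusted p = 0.194), between 0.77 and 1.29 with 1 library left out. OsABI5-1, BZIP71 and OsbZIP16 kept an unadjusted p under 0.05 with each of the 4 libraries left out in turn. Each of the other 11 members called lost it in at least 2 of these 4 fits.

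The rest of the called members were lower in level or less stable. OsbZIP04 stood at 7.32 and 6.87 FPKM against 3.78 and 4.12 (log2 fold change 0.71, SE 0.21, limma adjusted p = 0.203). OsbZIP85 stood at 9.38 and 7.65 against 5.11 and 5.46 (0.59) and OsbZIP21 at 2.94 and 2.72 against 4.30 and 6.09 (-0.68). Both libraries of one line lay clear of the other in these 3 genes. Os11g0166201 stood at 0.951 and 0.135 against 1.93 and 2.72 FPKM. It passed the level filter only through OE13. It is counted among the members called, but its call is not read as a difference, and 4 members were called lower without it. It carries no transcription factor term, and lies near the start of chromosome 11, where near-identical copies on chromosome 12 can split reads. The same uncertainty holds for OsbZIP79, OsbZIP80, OsbZIP81, OsbZIP83, OsbZIP84 and Os12g0156200.

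**Figure D5:**
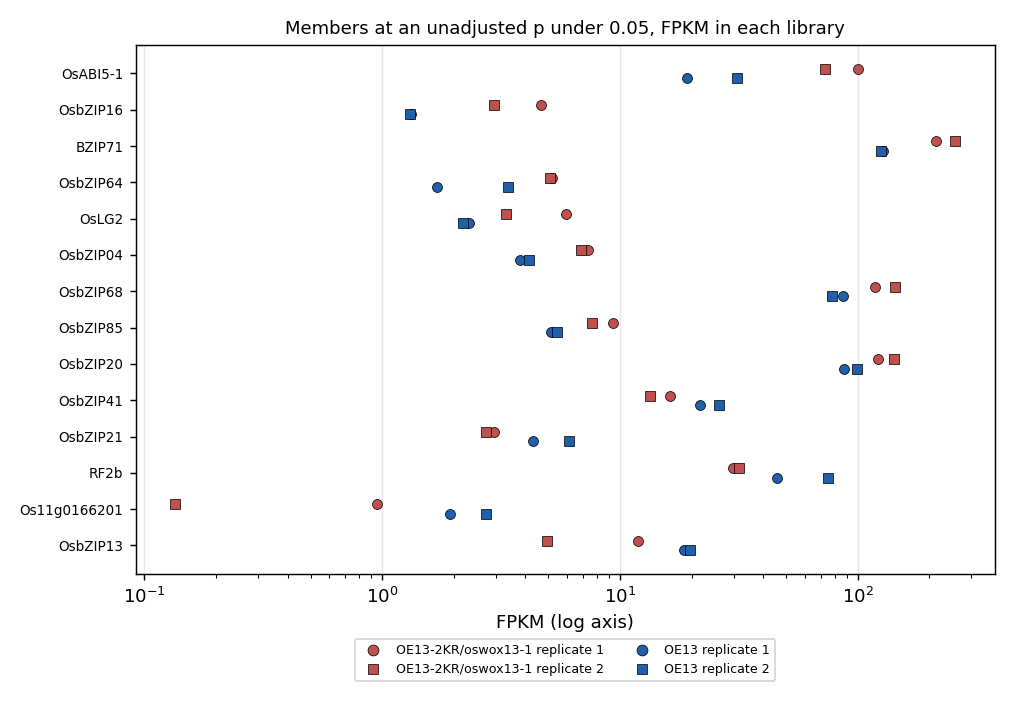
FPKM in each library, on a log axis, of the 14 members with an unadjusted p under 0.05. Among these, Os11g0166201 passed the level filter through OE13 alone. For the upper 9 genes both OE13-2KR/oswox13-1 libraries lie right of both OE13 libraries, and for the lower 5 both lie left; levels run from 0.135 FPKM (Os11g0166201) to 257 (BZIP71).

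The floral bZIP genes, a type with members that pair with florigen through GF14 (14-3-3) proteins, had 1 tested gene of 4 in these leaves. This was HBF1, a floral repressor, at 8.48 and 9.55 FPKM against 9.35 and 10.996 (log2 fold change -0.16, SE 0.21, limma adjusted p = 0.686), and the lines overlapped. BZIP77, the flowering promoter also known as OsFD1, was listed at 0.189 and 0 against 0.714 and 0.905. HBF2, a floral repressor, and BZIP55, annotated for leaf development, stayed below 0.9 FPKM in every library. The florigen gene HD3A was listed at 0 in 3 libraries and at 0.0431 in OE13 replicate 1. Among the 7 tested GF14 genes 6 had higher and 1 lower values in both OE13-2KR/oswox13-1 libraries, with a median log2 fold change of 0.40, where 23.4% and 32.8% of all tested genes did not overlap. None of the 7 was called by limma, which did not hold without OE13-2KR/oswox13-1 replicate 1. Their median lay between 0.26 and 0.54 with 1 library left out. Genes in antisense lie over part of each of the 7, from 10.8% of GF14G to 75.1% of GF14A.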

How the data were processed

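Leaf RNA of 4 libraries was sequenced as paired reads of 150 nt, per the labels' protocols. Sample labels name the molecule as genomic DNA although the protocol describes RNA, and the files were read as RNA-seq. Deposited by the authors was a table of FPKM for each gene in each library, per the file headers, with coordinates, descriptions and names. The tool behind the FPKM is not stated in these sources. DESeq2 1.38.3, HISAT2 2.2.1, featureCounts 2.0.0 and the build IRGSP-1.0 are named without roles in the submitters' processing notes, and this build is taken for the coordinates. A second table deposited by the authors lists genes marked up with a log2 fold change, a linear fold change, a p-value and an adjusted p-value, per the file headers. Unlabelled columns of values, 2 in number, were not used.

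Groups and replicate numbers came from the titles, and columns were matched by library name. FPKM was tested with limma 3.58.1 (R 4.3.3, trended variance) on log2(FPKM + 1), two-sided, for the 20174 genes with a mean of at least 1 FPKM, with Benjamini-Hochberg adjustment over all of them. This scale understates changes of low genes. Residual degrees of freedom were 2 and the prior added 3.30. A 2 against 2 exact permutation test has 0.333 as its smallest p, so none is given. Since depth is unknown, no counting interval is given. The fit was tested on simulated data. Role groups and 8 lists were made from names, descriptions and general knowledge, and are described by counts and medians without a test. Named members, 32 in all, are those of the rule, every tested ABF/AREB, TGA, HY5 and ER member, the 10 smallest p, the 5 highest means and those in the authors' list. From each list up to 3 genes with the smallest p were to be named; Rab16A, OsCNX, ESP2, HD3A, OsPP16, PDIL5 (Os03g0287900) and further members (OsbZIP20, OsbZIP21, OsbZIP85, OsbZIP81, HBF1 and those below the filter) were added after their values were seen. Members and lists were chosen with earlier results of these data known. Same-numbered libraries did not deviate together (correlation -0.091 over 2 pairs), so the main fit has no block. Alternatives, 13 in all, covered pseudocount, filter, scaling, variance trend, strand overlap, the replicate block and each library left out.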

Additional observations from a re-analysis of the deposited data

How the results depend on the processing

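No member passed the adjusted threshold in any of the 13 alternatives. With the replicate block, limma called 6 members higher and 4 lower without adjustment, against 9 and 5 without the block; the numbers do not pair the libraries. With 1 library left out, 4 to 7 were higher and 0 to 6 lower, and with a mean of at least 5 FPKM 6 were higher and 3 lower. The median of the members was 0.028 without a filter on low values and between 0.0078 and 0.27 with 1 library left out. Median ratio scaling moved the median of all genes from -0.08 to -0.01 and quantile normalisation to 0.03. Of 409 values of the 32 named members under alternatives, 361 kept direction and side of an unadjusted p of 0.05, 24 lost it, 8 gained it and 16 turned sign. MODD turned to 0.016 with median ratio scaling and OsbZIP45 to -0.044 with quantile normalisation. The other turns of members came with 1 library left out, where the log2 fold change ranged as follows. It ran from -0.015 to 0.38 for BZIP12, -0.0021 to 0.44 for BZIP23, -0.43 to 0.12 for BZIP46, -0.28 to 0.44 for OsbZIP72 and -0.063 to 0.45 for TRAB1. It ran from -0.12 to 0.52 for OsbZIP01, -0.13 to 0.49 for OsbZIP18 and -0.33 to 0.47 for OsbZIP48. It ran from -0.27 to 0.14 for MODD and -0.26 to 0.32 for OsbZIP45. Among listed genes outside the 409 values it ran from -0.14 to 0.21 for Os03g0116500, -2.15 to 0.079 for OsPYL/RCAR6 and -0.091 to 0.45 for OsPP2C06/OsABI2. The cause was not tested. Read depth is unknown, so a limit set by depth cannot be given; 30 members were too low to test.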

Other observations

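The genes beside OsABI5-1 on chromosome 1 were read as values after its own value was seen. OsPP16, which starts 1127 bp from OsABI5-1, had a log2 fold change of 0.12, and OsFbox049, at 14091 bp, one of 0.08. OsLG2, itself a bZIP gene of the TGA type, lies 5161 bp away at 0.75. On the other side Os01g0859200, an alpha/beta hydrolase gene at 17127 bp, stood at 16.8 and 13.6 FPKM against 10.4 and 11.97 (0.41). Os01g0858900, a glycosyl transferase gene at 39256 bp, stood at 34.2 and 41.6 against 22.7 and 27.4 (0.58, limma unadjusted p = 0.0345). None of these neighbours reached the 1.77 of OsABI5-1.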
